A study of Mus musculus with 12 samples.

Results

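Insulin signalling and glucose uptake were followed at the mRNA level through 10 genes of the pathway, Insr, Irs1, Irs2, Pik3r1, Akt1, Akt2, Foxo1, Pde3b, Slc2a4 and Sort1, each taken as the row with exactly that gene name. All 10 were found among the 39423 genes of the count and FPKM tables, where FPKM are read counts scaled to the length of the transcript and to the library total. The libraries came from 3T3-L1 cells, a mouse preadipocyte line that accumulates lipid after hormonal induction. Cells had been transfected with a control siRNA (siCtrl, labelled NC) or with siRNA against the arginine methyltransferase PRMT1 (siPRMT1, labelled KD), and RNA was taken after 24 h (day 1) or 72 h (day 3) of DMI, called MDI in the labels. Each of the 4 conditions had 3 libraries, 12 in all. DMI holds dexamethasone, 3-isobutyl-1-methylxanthine and insulin, so every condition had been exposed to insulin throughout, and no library of uninduced or insulin-free cells was analysed here. The knockdown was a transient transfection in an otherwise wild-type line. The labels do not say whether replicates were separate cultures, and p-values then measure only the spread between these samples, which may be technical.

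Insulin binds its receptor tyrosine kinase, which phosphorylates the insulin receptor substrates IRS1 and IRS2, and these recruit phosphoinositide 3-kinase through its p85 regulatory subunit. The lipid made by that kinase brings AKT to the membrane, and AKT then excludes the transcription factor FOXO1 from the nucleus, activates the phosphodiesterase PDE3B that lowers cyclic AMP and restrains lipolysis, and releases storage vesicles that carry the glucose transporter GLUT4 (Slc2a4) to the surface. Sortilin (Sort1) takes part in forming those vesicles. Fat cells acquire GLUT4 and sortilin during differentiation, and insulin-stimulated glucose uptake is a property of the mature adipocyte.

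Library totals ranged from 15116462 to 42357137 counts, with the highest in siCtrl day 1 replicate 1. Prmt1 itself was lower after knockdown, with a day 1 log2 fold change of -1.11 ± 0.076 (SE, edgeR adjusted p = 9.85e-04, n = 3 per group) and a day 3 value of -0.88 ± 0.088 (adjusted p = 1.22e-05). Adipocyte markers (Pparg, Cebpa, Fabp4, Adipoq, Plin1, Lep and Cidec) summed to 60.91 to 77.57 FPKM in siCtrl at day 1 and to 2086.84 to 2305.14 at day 3, against 41.18 to 49.45 and 1675.5 to 1826.92 in siPRMT1. Of the 7, 3 were called lower after knockdown at each day, Lep was not tested at either day and Adipoq not at day 1, and no adipocyte marker was called higher. The 6 preadipocyte and fibroblast markers summed to 438.7 to 531.05 FPKM in siCtrl and 431.07 to 469.5 in siPRMT1 at day 1, and to 217.16 to 244.45 and 225.64 to 280.9 at day 3, where Pdgfra was called higher after knockdown (log2 fold change 0.60). Macrophage, endothelial, muscle and epithelial markers summed to at most 2.56, 0.88, 2.51 and 6.57 FPKM in any library, and Ptprc and Myod1 were at 0 in every condition. Across the members, siCtrl day 1 replicate 3 lay farthest from its group, by a median of 0.19 and by up to 0.33 on the log2 scale. Day 1 values of Insr and Irs2 are therefore also given without it. Those of named pathway genes are given with all libraries only.

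Prmt1 was targeted with siRNAs of 25 bases, and the study lists 3 without saying which one was used for sequencing. They are shown because the knockdown rests on them, as the sense strand from 5′ to 3′:
siPRMT1-1: ccauguuucacaaucggcaucucuu
siPRMT1-2: ccauuggaaugaggcccaaugccaa
siPRMT1-3: cagccauugaggaccgacaauauaa
In the GENCODE M21 annotation of GRCm38 they match coding exons of Prmt1 on the minus strand, siPRMT1-1 at chr7:44981826-44981850, siPRMT1-2 at chr7:44977511-44977535 and siPRMT1-3 at chr7:44978900-44978924. The full 25 bases were found in 9, 8 and 7 of 14 annotated Prmt1 transcripts. The longest run of the sense strand shared with any transcript of the 10 members was 9, 9 and 10 bases. Each member shared a run of at least 7 bases with each siRNA, and direct action on the members was not tested.

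The 2 substrate genes are compared through their RefSeq promoter windows (GRCm38.p6, 250 bases before to 50 bases after the start site, both on the minus strand), because their transcripts took different courses and the windows share a pair of motifs. Irs1 lies at chr1:82291390-82291689 and Irs2 at chr8:11008880-11009179, which is upstream of the Irs2 end in the count table. Capitals mark the E-box CACGTG and the forkhead-type element TGTTTTG, searched on both strands:
Irs1: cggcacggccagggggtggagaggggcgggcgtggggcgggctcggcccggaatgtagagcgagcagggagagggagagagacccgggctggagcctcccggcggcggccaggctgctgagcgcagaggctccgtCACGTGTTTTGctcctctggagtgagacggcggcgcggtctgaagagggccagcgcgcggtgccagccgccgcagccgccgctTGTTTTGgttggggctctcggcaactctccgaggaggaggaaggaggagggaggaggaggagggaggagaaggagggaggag
Irs2: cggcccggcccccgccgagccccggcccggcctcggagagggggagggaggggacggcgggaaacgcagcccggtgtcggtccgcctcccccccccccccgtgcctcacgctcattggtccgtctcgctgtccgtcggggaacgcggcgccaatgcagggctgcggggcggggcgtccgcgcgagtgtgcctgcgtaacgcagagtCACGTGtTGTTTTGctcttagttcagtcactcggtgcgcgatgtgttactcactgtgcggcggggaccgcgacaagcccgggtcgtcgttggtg
In Irs1 the E-box began at -115 from the start site and ran into a TGTTTTG that began at -111 and shares its last bases, with a further TGTTTTG at -32. In Irs2 the E-box began at -44 and TGTTTTG at -37, with a single base between them. Of 32851 mouse promoter windows of this length, 7.15% held the E-box, 6.283% held TGTTTTG and 0.408% held both. The pair was picked after the matches of 10 motifs were seen, the others being the forkhead element TGTTTAC, a C/EBP element as TTGCGCAA or, looser, as TTGCNNCAA, the PPAR half-site AGGTCA and full DR1, the cyclic AMP element TGACGTCA and its half-site TGACG, and the GC box GGGCGG. The GC box was also in both windows, as in 35.658% of all. The table had windows for 6 of the 10 members. Neither motif was found in those of Akt1, Akt2, Foxo1 and Pik3r1, and a match of letters is a description of the window, not evidence of binding.

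Across the course of differentiation in control cells, Slc2a4 and Sort1 rose from almost nothing while the other 8 members were already expressed at day 1. In siCtrl at day 1, Akt1 was the highest member at 163 ± 25.1 FPKM (SD, n = 3), followed by Pik3r1 at 30.9 ± 4.6, while Sort1 stood at 0.44 ± 0.015 and Slc2a4 at 0.013 ± 0.012. The neighbouring pairs Akt2 and Irs2, and Pde3b and Foxo1, overlapped between libraries at that day. In siCtrl at day 3 the order was Akt1, Akt2, Pik3r1, Irs2, Sort1, Foxo1, Irs1, Pde3b, Insr and Slc2a4, with overlap between Foxo1 and Irs1 and between Pde3b and Insr. In siPRMT1 at day 3 the order was Akt1, Akt2, Pik3r1, Irs2, Irs1, Sort1, Foxo1, Insr, Pde3b and Slc2a4, with 4 neighbouring pairs overlapping. Sort1 thus ranked above Irs1 in control cells (16.53 to 16.66 against 12.01 to 12.63 FPKM) and below it by mean after knockdown, where both spans met (10.57 to 11.21 against 10.96 to 12.32 FPKM).

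**Figure D1:**
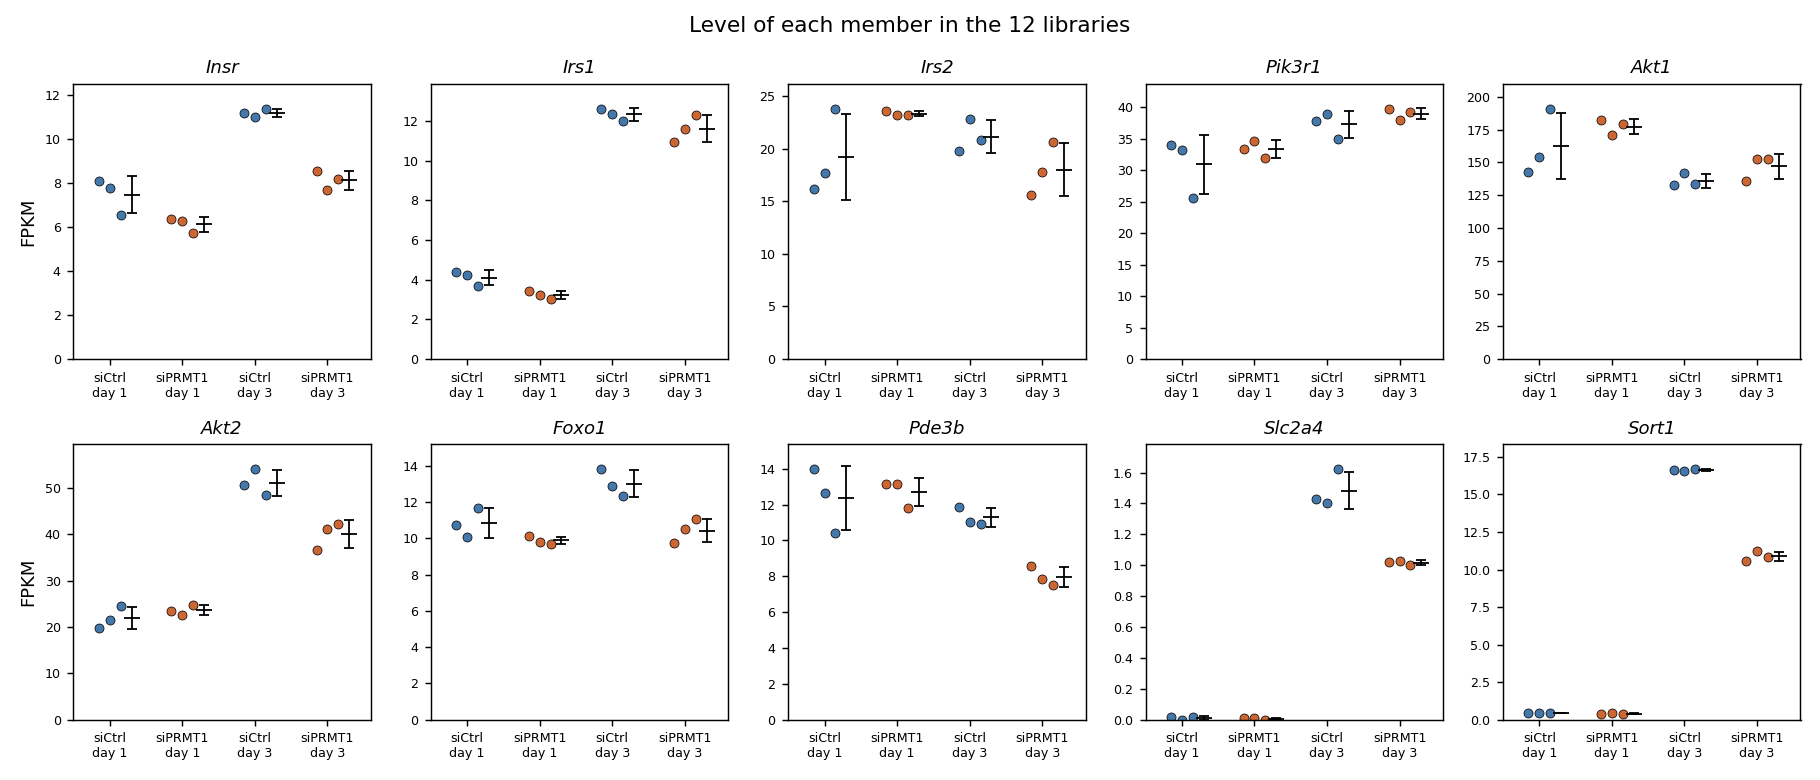
FPKM of each of the 10 genes (vertical axes, linear and starting at 0) in the 4 conditions, 1 point per library in order of replicate, with the mean and SD as a black bar to the right of the points (n = 3). Slc2a4 and Sort1 are close to 0 at day 1 in both siRNA groups, and at day 3 the siPRMT1 points of Insr, Akt2, Foxo1, Pde3b, Slc2a4 and Sort1 all lie under the siCtrl points.

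A gene was called in a comparison when edgeR's quasi-likelihood test gave an adjusted p under 0.05 (Benjamini-Hochberg over all genes tested) with an absolute log2 fold change above 0.5, and calls at adjusted p alone were counted beside them. In siCtrl, 5 of 10 members were called between day 1 and day 3, all higher at day 3, where 43.2% of all 13829 genes tested were called, 22.7% higher and 20.4% lower. Akt1 was lower at adjusted p alone, a rule that 58.9% of genes passed. In siPRMT1, 4 members were called higher and 1 lower, where 36.5% of 14224 genes were called, 19% higher and 17.4% lower. At adjusted p alone 9 of 10 members passed, as did 63.4% of genes. A change of members over days is therefore read against a background in which a large share of all genes moved. Slc2a4 is among the members called higher in both siRNA groups, with 3 counts in siCtrl and 2 in siPRMT1 at day 1. It entered these tests through day 3, where it is high, and could only come out higher.

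At day 3, 3 of the 10 members were called lower in siPRMT1 than in siCtrl, where 6.65% of 14039 genes tested were called and 3.8% were called lower. They were Sort1, Slc2a4 and Pde3b. At adjusted p alone, 6 members were lower and none higher (Insr, Akt2 and Foxo1 in addition), where 16.5% of genes passed and 8.94% were lower. In those 6 the siCtrl and siPRMT1 libraries did not overlap, as was the case for 34.9% of all genes, 18.1% in the lower direction. The median log2 fold change over the 10 members was -0.34, and over all genes tested 0.0073. Members were chosen with earlier results of these data known, so these contrasts with all genes are partly set by the choice.

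At day 1 none of the 9 members tested was called, where 3.56% of 13689 genes were called. That background of 487 genes depended on single libraries, with 873 called without siCtrl day 1 replicate 3 (6.26% of genes), 185 without siCtrl day 1 replicate 2, and 179, 177 and 123 without siPRMT1 day 1 replicate 1, 2 or 3. Slc2a4 did not pass the filter on low counts there. Of the 9, 3 had an unadjusted p under 0.05 in edgeR, where 24.6% of genes did. DESeq2 and limma, by voom or on FPKM, also called 0. At adjusted p alone Irs1 was lower, where 7.6% of genes passed and 4.38% were lower. On the scale of counts divided by the normalized library size, Insr, Irs1 and Foxo1 were lower in siPRMT1 without overlap, in a table where 31.5% of genes did not overlap and 16% were lower without overlap. The median over the 9 members was -0.013, and over all genes 0.0096.

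**Figure D2:**
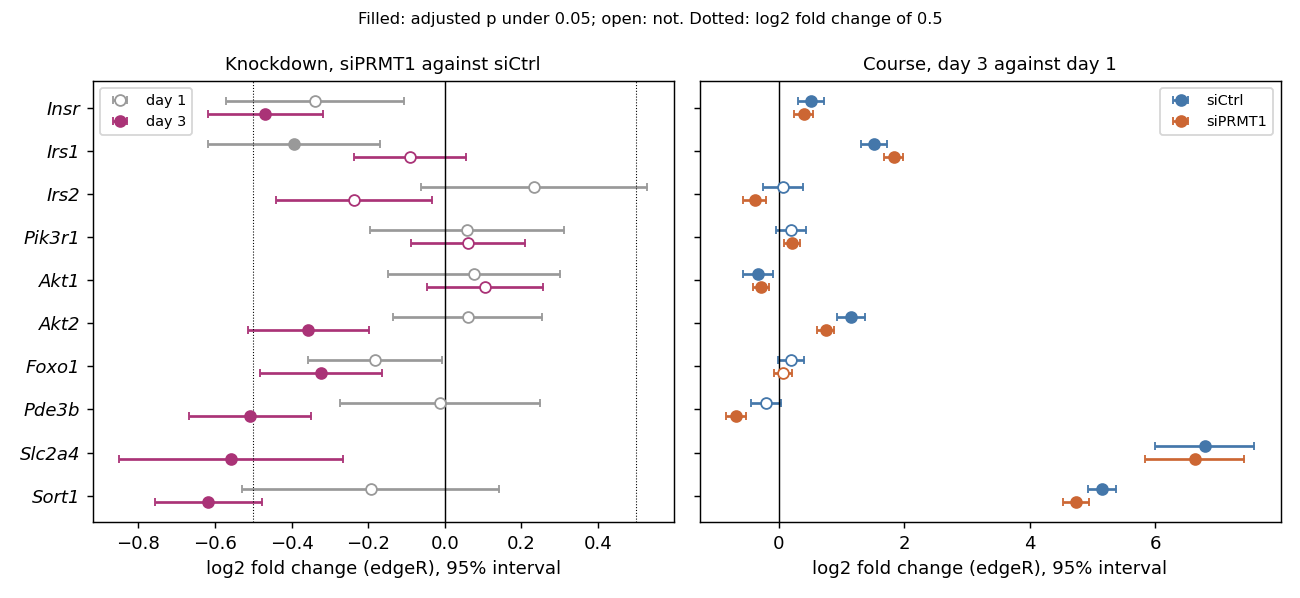
Log2 fold changes from edgeR with 95% intervals (horizontal axes) for each gene, left for siPRMT1 against siCtrl at day 1 and day 3 and right for day 3 against day 1 in siCtrl and siPRMT1 (n = 3 per group). Filled points passed an adjusted p of 0.05 and dotted lines mark a log2 fold change of 0.5. At day 3, 6 genes are filled and lie between -0.62 and -0.32, while Irs1, Irs2, Pik3r1 and Akt1 are open. Slc2a4 has no point at day 1.

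Insr (chr8:3150922-3279649 in GRCm38, minus strand) encodes the insulin receptor. It was at 8.1, 7.75 and 6.52 FPKM in siCtrl and 6.37, 6.25 and 5.7 in siPRMT1 at day 1, and at 11.17, 10.97 and 11.36 against 8.51, 7.65 and 8.15 at day 3. All siPRMT1 libraries lay below all siCtrl libraries at both days. At day 1 the log2 fold change was -0.34 ± 0.10 (SE, adjusted p = 0.083). At day 3 it was -0.47 ± 0.071 (adjusted p = 3.56e-04), so the level fell by 27.7%, short of the fold threshold. Without siCtrl day 1 replicate 3 the day 1 value was -0.43 (adjusted p = 5.40e-04), while over the other 5 fits without 1 library the adjusted p reached 0.27. The change with siRNA did not differ between days beyond the error (difference -0.11, 95% interval -0.36 to 0.14). Insr rose over the course by 0.51 in siCtrl (adjusted p = 0.00111), a call that 2 of 6 fits without 1 library kept (0.42 to 0.56), and by 0.39 in siPRMT1 (adjusted p = 2.58e-04).

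Irs1 and Irs2 encode the main docking proteins of the receptor, and their transcripts did not move together. Irs1 (chr1:82233105-82291439, minus strand) was at 4.39, 4.23 and 3.67 FPKM in siCtrl and 3.43, 3.23 and 3.05 in siPRMT1 at day 1, and at 12.63, 12.37 and 12.01 against 10.96, 11.6 and 12.32 at day 3. The siRNA groups stood apart at day 1 and overlapped at day 3. At day 1 Irs1 had a log2 fold change of -0.39 ± 0.098 (adjusted p = 0.0483). That adjusted p rose to between 0.118 and 0.19 when any library other than siCtrl day 1 replicate 3 was left out, and to between 0.0998 and 0.21 with limma on FPKM. At day 3 it was -0.09 (95% interval -0.24 to 0.055, adjusted p = 0.39). Over the course Irs1 rose by 1.52 in siCtrl and 1.83 in siPRMT1, and the difference of 0.32 ± 0.11 did not pass (adjusted p = 0.074).

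Irs2 (chr8:10986961-11008430, minus strand) was at 16.16, 17.64 and 23.8 FPKM in siCtrl and 23.59, 23.17 and 23.17 in siPRMT1 at day 1, and at 19.74, 22.82 and 20.81 against 15.56, 17.8 and 20.59 at day 3. The groups overlapped at both days, at day 1 through siCtrl replicate 3 alone. Its day 1 log2 fold change was 0.23 (95% interval -0.061 to 0.53, adjusted p = 0.31), and its day 3 value -0.24 (interval -0.44 to -0.035, adjusted p = 0.102). Without siCtrl day 1 replicate 3 the day 1 value was 0.41 (adjusted p = 4.19e-04). Irs2 fell over the course in siPRMT1, by 0.39 on the log2 scale (adjusted p = 0.00104), and had a log2 fold change of 0.07 in siCtrl (interval -0.25 to 0.39). The difference between those courses was -0.45 ± 0.18 (adjusted p = 0.127), and it passed without siCtrl day 1 replicate 3 (-0.66, adjusted p = 0.00166).

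The ratio of Irs1 to Irs2 in FPKM was 0.22 ± 0.061 (SD, n = 3) in siCtrl and 0.14 ± 0.0069 in siPRMT1 at day 1, and 0.59 ± 0.050 and 0.65 ± 0.053 at day 3. It was lower in every siPRMT1 library than in every siCtrl library at day 1 (0.132 to 0.145 against 0.154 to 0.272), with a difference of -0.64 on the log2 scale (exact permutation test, two-sided p = 0.1, adjusted p = 0.133 over 8 tests, n = 3). With 3 libraries against 3 this test cannot go below 0.1. At day 3 the ratios overlapped. Per transcript length, the mean level of Irs2 was above that of Irs1 in each condition.

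Pik3r1 (chr13:101680761-101768217, minus strand), the p85α regulatory subunit, had the log2 fold change nearest 0 of the members tested at day 3. It was at 34.03, 33.17 and 25.62 FPKM in siCtrl and 33.46, 34.71 and 31.93 in siPRMT1 at day 1, and at 37.89, 39.01 and 34.99 against 39.81, 38.01 and 39.3 at day 3. The siRNA groups overlapped at both days. Knockdown gave a log2 fold change of 0.06 at both days, with 95% intervals of -0.20 to 0.31 at day 1 and -0.088 to 0.21 at day 3, and the sign depended on the setting at both. Over the course it had 0.20 in siCtrl (adjusted p = 0.134) and rose by 0.21 in siPRMT1 (adjusted p = 0.00526).

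Akt1 and Akt2 encode the kinases of the pathway, AKT2 being the form tied most closely to glucose uptake in fat. Akt1 (chr12:112653821-112674796, minus strand) was at 142.87, 154.42 and 191.03 FPKM in siCtrl and 182.04, 170.65 and 179.56 in siPRMT1 at day 1, and at 132.9, 142.21 and 133.31 against 135.87, 152.72 and 152.65 at day 3. The siRNA groups overlapped at both days. Its log2 fold change was 0.08 at day 1 (95% interval -0.15 to 0.30) and 0.10 at day 3 (interval -0.046 to 0.26). At day 1 the overlap came through siCtrl replicate 3 alone. In the 6 fits without 1 library the day 1 value ran from -0.0076 to 0.20, and 1 fit had an adjusted p under 0.05. Over the course Akt1 fell by 0.33 on the log2 scale in siCtrl (adjusted p = 0.0244) and by 0.28 in siPRMT1 (adjusted p = 7.99e-04), both short of the fold threshold.

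Akt2 (chr7:27591557-27639453, plus strand) took the opposite course. It was at 19.82, 21.46 and 24.52 FPKM in siCtrl and 23.52, 22.66 and 24.74 in siPRMT1 at day 1, and at 50.63, 54.01 and 48.45 against 36.64, 41.21 and 42.23 at day 3. The groups overlapped at day 1 and stood apart at day 3. Its log2 fold change after knockdown was 0.06 at day 1 (95% interval -0.13 to 0.25) and -0.36 ± 0.074 at day 3 (adjusted p = 0.00399), so the level fell by 21.9%. Over the course it rose by 1.15 in siCtrl (adjusted p = 5.69e-06) and by 0.75 in siPRMT1 (adjusted p = 1.73e-07).

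The difference between the knockdown's effect at day 3 and at day 1 is the interaction of siRNA and day, in which none of the 10 members was called, where 8.24% of 14612 genes were called. Of the 10, 5 had an unadjusted p under 0.05, where 27.3% of genes did. DESeq2 also called 0 and voom called 1. At adjusted p alone 2 passed, both lower, where 12.3% of genes passed and 4.63% were lower. They were Akt2, at -0.39 ± 0.12 (adjusted p = 0.0438), and Pde3b, at -0.48 ± 0.13 (adjusted p = 0.0315). Akt2 kept an adjusted p under 0.05 in 3 of the 12 fits that left out 1 library and Pde3b in 5, with the adjusted p reaching 0.135 and 0.0825. Without siCtrl day 1 replicate 3 there were 2 members called, and 1 without siCtrl day 1 replicate 1, siPRMT1 day 1 replicate 3 or siPRMT1 day 3 replicate 1.

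The ratio of Akt2 to Akt1 in FPKM varied little between replicates. It was 0.135 ± 0.0061 (SD, n = 3) in siCtrl and 0.133 ± 0.0043 in siPRMT1 at day 1, and 0.375 ± 0.0098 and 0.272 ± 0.0040 at day 3. The siCtrl libraries at day 3 spanned 0.363 to 0.381 and the siPRMT1 libraries 0.27 to 0.277, without overlap, a difference of -0.46 on the log2 scale (exact permutation test, two-sided p = 0.1, adjusted p = 0.133, n = 3). At day 1 the difference was -0.02 (exact p = 0.6).

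**Figure D3:**
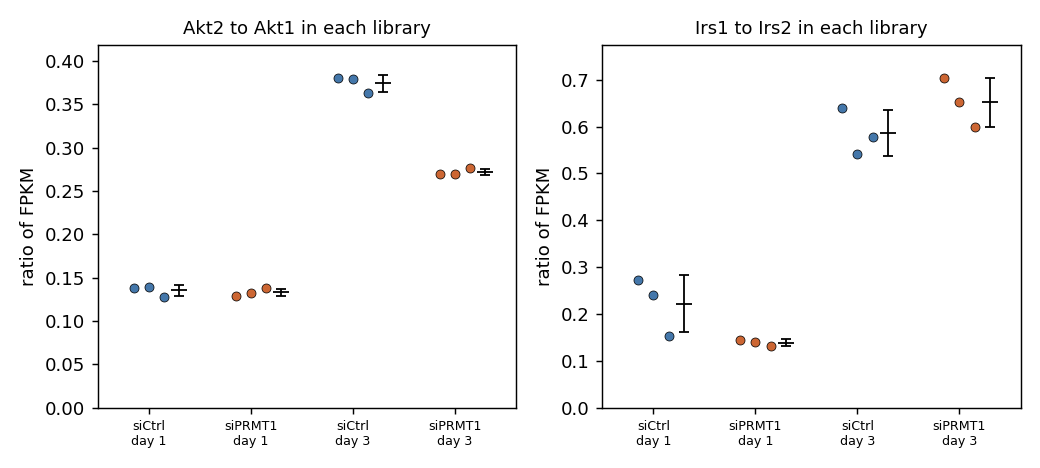
Ratio of Akt2 to Akt1 (left) and of Irs1 to Irs2 (right) in FPKM, vertical axes starting at 0, 1 point per library in the 4 conditions with the mean and SD beside them (n = 3). The Akt2 to Akt1 ratio rises from about 0.135 to 0.375 in siCtrl and to 0.272 in siPRMT1, and the Irs1 to Irs2 ratio rises in both.

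Downstream of AKT, Foxo1 (chr3:52268337-52350109, plus strand) encodes a transcription factor that insulin keeps out of the nucleus. It was at 10.74, 10.05 and 11.68 FPKM in siCtrl and 10.12, 9.81 and 9.7 in siPRMT1 at day 1, and at 13.79, 12.88 and 12.31 against 9.74, 10.49 and 11.04 at day 3. The groups overlapped in FPKM at day 1 and stood apart at day 3. At day 1 its log2 fold change was -0.18 ± 0.077 (adjusted p = 0.189). By day 3 it was -0.32 ± 0.075 (adjusted p = 0.00847). It had no change past the test over the course in either siRNA group, with 0.19 in siCtrl (95% interval -0.016 to 0.40) and 0.07 in siPRMT1 (interval -0.076 to 0.21).

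Pde3b (chr7:114411891-114537942, plus strand) encodes the phosphodiesterase through which insulin restrains lipolysis, and it was the 1 member called lower over the course in the knockdown. It was at 13.96, 12.66 and 10.43 FPKM in siCtrl and 13.15, 13.13 and 11.8 in siPRMT1 at day 1, and at 11.87, 11.03 and 10.94 against 8.57, 7.84 and 7.49 at day 3. The groups overlapped at day 1 and stood apart at day 3. The log2 fold change was -0.01 at day 1 (95% interval -0.27 to 0.25) and -0.51 ± 0.075 at day 3 (adjusted p = 3.02e-04), so the level fell by 29.7%. The day 3 value lies at the fold threshold. In 3 of 6 fits without 1 library it came to between -0.47 and -0.49 and the call ended, while the adjusted p stayed under 0.05 in all 20 alternatives. Over the course Pde3b fell by 0.69 in siPRMT1 (adjusted p = 1.88e-06) and had -0.20 in siCtrl (interval -0.44 to 0.039). A transcript of the opposite strand, 4933406I18Rik, shares up to 299 exon bases with it and had counts equal to 0.5609% of those of Pde3b, and whether counting used strand is not stated.

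Slc2a4 (chr11:69942286-69948217, minus strand) encodes GLUT4. At day 1 it had 2, 0 and 1 counts in the siCtrl libraries and 1, 1 and 0 in the siPRMT1 libraries, so a difference was not detectable at this depth. At day 3 it had 90, 66 and 121 counts in siCtrl, or 1.43, 1.4 and 1.62 FPKM, and 69, 84 and 77 counts in siPRMT1, or 1.02, 1.03 and 1 FPKM. The siPRMT1 libraries all lay below the siCtrl libraries in FPKM. The log2 fold change was -0.56 ± 0.14 (adjusted p = 0.0115), and the level fell by 32.1%. Without siCtrl day 3 replicate 3 it was -0.48 (adjusted p = 0.0546), with limma on log2(FPKM + 1) -0.30, and with an offset for GC content and length -0.48 (adjusted p = 0.017), each of which ended the call. An added 1 is about as large as these FPKM and shrinks the fold change, so the limma value says little about the call. Counts summed over libraries and scaled to the summed totals rose 132.9-fold from day 1 to day 3 in siCtrl (exact 95% interval 45.0 to 648, from 3 and 277 counts) and 118.4-fold in siPRMT1 (32.4 to 983, from 2 and 230 counts), intervals that cover counting error only. The interaction had a 95% interval of -3.99 to 3.67 and could not resolve a difference between those courses.

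Sort1 (chr3:108284053-108361519, plus strand) encodes sortilin. It was at 0.46, 0.44 and 0.43 FPKM in siCtrl and 0.39, 0.46 and 0.36 in siPRMT1 at day 1, and at 16.61, 16.53 and 16.66 against 10.57, 11.21 and 10.82 at day 3. The groups overlapped at day 1 and stood well apart at day 3. The log2 fold change was -0.19 at day 1 (95% interval -0.53 to 0.14) and -0.62 ± 0.066 at day 3 (adjusted p = 1.84e-05), so the level fell by 34.8%, and it was called in all 20 alternatives. Sort1 had the 81st smallest p of 14039 genes. Over the course it rose by 5.15 in siCtrl (adjusted p = 8.84e-10) and by 4.73 in siPRMT1 (adjusted p = 1.42e-13), and the interaction was -0.40 ± 0.13 (adjusted p = 0.057).

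The 6 members that were lower at day 3 moved beside the adipocyte markers, of which Adipoq, Plin1 and Cidec were called lower at day 3 with log2 fold changes of -0.69, -0.71 and -0.54, and beside Pdgfra, which was called higher (0.60), and Pdgfrb, higher at adjusted p alone (0.41). Pparg and Cebpa were lower at adjusted p alone, at -0.30 (adjusted p = 0.00407) and -0.46 (adjusted p = 4.01e-04), while Fabp4 had -0.13 (adjusted p = 0.34). Of the other preadipocyte and fibroblast markers, Thy1 and Col1a1 had 0.11 and 0.15, and Dlk1 and Gata2 -0.070 and -0.011. None of those passed at adjusted p. The part of the adipocyte share in the member values was not tested, and in bulk RNA fewer cells of a type and less RNA per cell cannot be told apart.

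The genes whose patterns were most like those of the called members were found by the root mean square difference of centred log2 counts scaled to the library total (CPM) over the 12 libraries. The search covered 9324 or 9325 genes that averaged 10 CPM or more. For Slc2a4 the nearest was Sort1 (0.23), then Dgat2 (0.32), which makes triglyceride, and Pla2g16 (0.43), an adipocyte phospholipase. Slc2a4 itself was below that limit, at 4.69 CPM in siCtrl and 3.18 in siPRMT1 at day 3. With 3 and 2 counts at day 1, its day 1 value was set largely by the small count added before taking logs. Its distances depend on that added count, so the match with Sort1 cannot be read as a like size of rise. For Sort1 they were Dgat2 (0.20), Pla2g16 (0.30) and Mcam (0.30). Dgat2 averaged 5.16 and 4.18 FPKM at day 1 and 164.5 and 93.9 at day 3, in siCtrl and siPRMT1. For Pde3b they were Trim2 (0.12), D16Ertd472e (0.12) and Plod2 (0.13), and Plod2, a collagen lysyl hydroxylase, averaged 8.64 FPKM in siCtrl and 5.99 in siPRMT1 at day 3.

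The wider pathway was described with 116 further genes in 6 lists, of which 115 were in the table. At day 3, 8 of 99 tested were called after knockdown, 1 higher and 7 lower, or 8.08%, beside 6.65% of all genes. At day 1, 8 of 95 were called, 4 in each direction, or 8.42%, beside 3.56% of all genes, and this count came to 3 to 5 without siCtrl day 1 replicate 2 or any 1 of the siPRMT1 day 1 libraries, fits in which the share of all genes also fell, to between 0.893% and 1.33%. The medians were -0.030 and 0.015, beside 0.0073 and 0.0096 over all genes. The lists were also chosen with earlier results known, so these shares and those of each list are not a test of the pathway.

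Among receptor partners and adaptors, 2 of 17 tested were called at day 3 and 1 of 16 at day 1, where 6.65% and 3.56% of all genes were. Sh2b2, the adaptor APS that docks on the activated receptor, was at 39.95, 47.58 and 44.85 FPKM in siCtrl and 22.38, 28.24 and 29.93 in siPRMT1 at day 3, without overlap, a log2 fold change of -0.72 (adjusted p = 1.62e-04). Grb10, an inhibitor of the receptor, was higher at 0.57 (adjusted p = 0.0194) but at no more than 1.08 FPKM in any library of that day. Socs1, a feedback inhibitor, was higher at day 1 by 0.70 (adjusted p = 0.0265).

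Among the 8 tested genes of PI3K and its phosphatases none was called at day 3 in edgeR or DESeq2, where edgeR called 6.65% of all genes. In edgeR 2 of the 8 had an unadjusted p under 0.05 at day 3, where 31.3% of all genes did. Inpp5k, an inositol phosphatase, was at 8.68, 9.63 and 11.1 FPKM in siCtrl and 7.35, 6.22 and 7.06 in siPRMT1 at day 1. It was lower by -0.56 (adjusted p = 0.0232), with its highest value in siCtrl replicate 3. In the list of AKT, mTORC and FOXO genes, 1 of 23 was called at day 3 and 2 at day 1, where 6.65% and 3.56% of all genes were. Trib3, a pseudokinase that binds AKT, changed direction between the days. It was at 14.54, 14.82 and 17.65 FPKM in siCtrl and 44.49, 48.85 and 50.52 in siPRMT1 at day 1, and at 41.96, 42.74 and 40.87 against 20.79, 20.8 and 23.35 at day 3. The log2 fold changes were 1.57 (adjusted p = 9.76e-04) and -0.96 (adjusted p = 1.47e-06), and the interaction was -2.50 ± 0.13 (adjusted p = 6.21e-08). Eif4ebp1, the translation repressor 4E-BP1, was called higher at day 1 (0.62, adjusted p = 0.00557) and was lower at day 3 at adjusted p alone (-0.37, adjusted p = 0.0113).

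The list of GLUT4 vesicle traffic, which holds cargo proteins such as Lrp1 and Lnpep as well as trafficking machinery, had 28 tested genes and no call at either day in edgeR or DESeq2, where 3.56% of all genes were called at day 1 and 6.65% at day 3. At day 1, 10 of the 28 had an unadjusted p under 0.05, where 24.6% of all genes did, and at day 3 it was 8, where 31.3% did. At adjusted p alone 2 of the 28 passed at day 1, beside 7.6% of all genes, and 3 at day 3, beside 16.5%. Over 28 genes these counts are near the shares of all genes, and the median of the list at day 3 was -0.0070. Lrp1 had 0.12 (adjusted p = 0.389) and Lnpep -0.21 (adjusted p = 0.113) at day 3.

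Of the other glucose transporters and hexokinases, 2 of 10 tested were called at day 3, both lower, where 6.65% of all genes were called and 3.8% were called lower. Slc2a1, which encodes the basal transporter GLUT1, was at 77.04, 85.17 and 79.3 FPKM in siCtrl and 47.13, 47.8 and 52.13 in siPRMT1 at day 3, a log2 fold change of -0.72 (adjusted p = 1.28e-05). At day 1 it was at 42.08, 40.97 and 48.83 against 58.85, 52.85 and 57.31, a log2 fold change of 0.31 that did not pass (adjusted p = 0.060), and the interaction was -1.01 ± 0.12 (adjusted p = 7.80e-05). In FPKM all siPRMT1 libraries were above siCtrl at day 1 and below at day 3. Per length, Slc2a1 stood far above Slc2a4 in every library, with 47.13 FPKM as its lowest value at day 3 and 1.62 as the highest of Slc2a4.

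Hk2, the insulin-regulated hexokinase that traps glucose in the cell, was at 6.82, 6.39 and 6.96 FPKM in siCtrl and 8.98, 9.7 and 8.95 in siPRMT1 at day 1, and at 29.77, 29.71 and 33.71 against 20.82, 19.48 and 20.62 at day 3. It was lower at day 3 by -0.62 (adjusted p = 4.35e-05) and higher at day 1 by 0.40 at adjusted p alone (adjusted p = 0.0197), with an interaction of -1.004 ± 0.11 (adjusted p = 3.99e-05). Reads of a second Hk2 row, a copy on an alternate contig, came to 6578 counts against 25933, so its level is uncertain. Slc2a13, a myo-inositol transporter, was lower at day 1 by -0.81 (adjusted p = 0.0106).

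Of the FOXO1 target genes, 3 of 13 tested were called at day 3, all lower, where 6.65% of all genes were called and 3.8% were called lower. At day 1 it was 3 of 11, where 3.56% of all genes were called. Klf15, a factor of late adipogenesis, was at 2.81, 2.9 and 3.02 FPKM in siCtrl and 1.39, 1.1 and 1.16 in siPRMT1 at day 3, a log2 fold change of -1.27 (adjusted p = 4.23e-06). Pnpla2, the triglyceride lipase ATGL, was at 29.26, 30.15 and 40.47 FPKM in siCtrl and 20.96, 16.97 and 19.44 in siPRMT1 at day 1. It was lower at both days, by -0.85 (adjusted p = 0.0115) and -0.55 (adjusted p = 4.31e-04). Ccng2, an unconventional cyclin, was also lower at both, by -0.68 (adjusted p = 0.00302) and -0.57 (adjusted p = 3.23e-04), while Gadd45a, a stress response gene, was higher at day 1 by 0.78 (adjusted p = 0.00659). These genes have many other regulators, and the list does not measure FOXO1 activity.

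**Figure D4:**
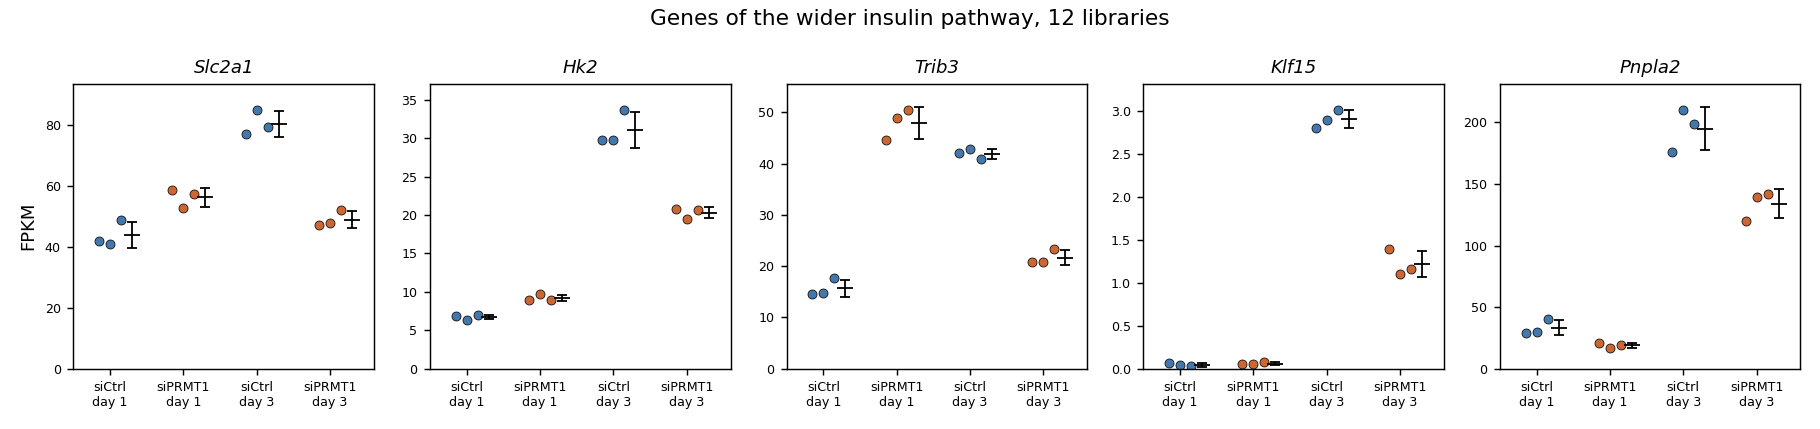
FPKM of Slc2a1, Hk2, Trib3, Klf15 and Pnpla2 (vertical axes, linear and starting at 0) in the 4 conditions, 1 point per library with the mean and SD beside them (n = 3). The siPRMT1 points of Slc2a1, Hk2 and Trib3 lie above siCtrl at day 1 and below at day 3, where all were called, while at day 1 Trib3 was called, Hk2 passed at adjusted p alone and Slc2a1 did not pass (adjusted p = 0.060), Klf15 is near 0 at day 1, and Pnpla2 is lower in siPRMT1 at both days.

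Over the course in siCtrl, 41 of 99 pathway genes were called, 22 higher and 19 lower, or 41.4%, beside 43.2% of all genes. Irs3, a rodent substrate of the receptor, had no counts in the siCtrl libraries at day 1 and 15, 22 and 24 at day 3. Pck1, a FOXO1 target of glyceroneogenesis, likewise had none at day 1 and 16, 15 and 21 at day 3. Both had at most 0.62 FPKM in those libraries, entered this test through day 3 and could only come out higher. Klf15, also called higher, did not pass the filter on low counts at day 1 and entered through day 3 as well. Lrp1, a cargo protein of GLUT4 vesicles and a broad endocytic receptor, fell by 1.80 on the log2 scale (adjusted p = 1.22e-07), Foxo6 fell by 2.17 (adjusted p = 4.94e-05), and Pik3cb, a catalytic subunit of PI3K, rose by 0.87 (adjusted p = 3.92e-04).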

How the data were processed

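RNA was sequenced from 12 libraries of 3T3-L1 cells, 3 for each of siCtrl and siPRMT1 at day 1 and day 3, grouped by the titles in the labels. The submitters' processing notes name cutadapt 1.11, HISAT2 2.1.0, RSEM 1.2.6 and mm10, and the authors deposited whole read counts per gene and FPKM for 39423 rows. FPKM matched the counts divided by length and library total. The counting tool, strand and treatment of multimapping reads are not given in the sources used here. Deposited columns of genome position and length were used as given. Rows with a number after the name are copies on alternate contigs (2266 rows, 0.612% of counts). For some pathway genes the copies held most reads, with 14688 counts against 971 for Mtor and 5994 against 905 for Dok1. Both were tested on the row with the plain name, so their values there are uncertain.

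Counts were filtered with filterByExpr, scaled by TMM and tested with edgeR 4.0.16 (glmQLFit, glmQLFTest) in R 4.3.3 within the groups compared, over all 12 libraries for the interaction. The SE is the absolute log2 fold change over the root of F, and intervals are 95% from the t distribution with the test's degrees of freedom. Calls used the thresholds of the study, an adjusted p of 0.05 and an absolute log2 fold change of 0.5. Depth set the floor: 3 counts, the limit that a count of 0 allows, are 0.071 CPM in the deepest library and 0.198 CPM in the shallowest. Alternatives were DESeq2 1.42.0, RLE scaling, other count filters, a replicate block, all libraries in 1 model, no fold threshold, limma 3.58.1 (voom with library weights, and log2 of FPKM with pseudocounts of 1 or 0.1), leaving out each library, and, chosen after seeing the data, offsets for GC content and length and summed copies. Scripts were tested on simulated data with 200 changed genes.

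Members and lists were chosen with earlier results of these data known. Pathway genes were named if called at a knockdown comparison (up to 3 per list and direction, at least 1 CPM on average), if among the 3 smallest p of the interaction, or if the largest called course of a list in siCtrl. A gene that this rule names is not reported here. Gene positions came from the deposited tables, promoters from RefSeq (GRCm38.p6) and siRNA matches from GENCODE M21.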

Additional observations from a re-analysis of the deposited data

Results flagged for a closer look

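Of the members and named pathway genes, 10 had a knockdown effect at day 3 that differed from that at day 1 by edgeR's test of the interaction, at adjusted p alone. Over all genes tested, 12.3% passed that rule. Trib3, Hk2 and Slc2a1 were named for their small p in this same test, and others for knockdown calls. The count of 10 is therefore partly set by that choice and is not a result about the pathway. The differences are log2 fold changes at day 3 minus those at day 1, n = 3 libraries in each of the 4 conditions. Trib3 had -2.50 (adjusted p = 6.21e-08), Klf15 -1.34 (adjusted p = 0.0369), Slc2a1 -1.01 (adjusted p = 7.80e-05), Hk2 -1.004 (adjusted p = 3.99e-05) and Eif4ebp1 -0.96 (adjusted p = 3.69e-04). Gadd45a had -0.63 (adjusted p = 0.0120). Slc2a13 had 1.199 (adjusted p = 0.00134) and Inpp5k 0.65 (adjusted p = 0.00956), both lower after knockdown at day 1. Klf15 did not pass the filter on low counts at day 1, with 4 to 16 counts per library, and entered this test through day 3, where it is high, so its difference between days is poorly measured. Among the 10 members, Pde3b had -0.48 (adjusted p = 0.0315) and Akt2 -0.39 (adjusted p = 0.0438), neither past the fold threshold. Groups of 3 libraries are too small for a test of single outlying libraries, and none was made.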

How the results depend on the processing

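At day 3 Sort1 was called in all 20 alternatives. Slc2a4 lost its call in 5 and Pde3b in 7, in the same direction in each, and Insr passed the fold threshold as well in 4 besides the setting without one. With no fold threshold the members called were 1 at day 1, 6 at day 3, 2 in the interaction and 9 in the siPRMT1 course, and pathway genes called were 17, 16, 15 and 70. With limma on log2(FPKM + 1), filtered or not, 1 member was called at day 3, and 4 pathway genes were called at day 1 without a filter. The added 1 shrinks the fold changes of genes at low FPKM, which by itself can take them under the fold threshold. In the interaction 1 member was called, against 0, with voom, with limma on FPKM at either pseudocount or without a filter, and with GC and length offsets with or without the replicate block. Leaving out 1 library gave 3 to 11 pathway genes called at day 1, 8 to 14 in the interaction and 0 to 2 members in the interaction, the 2 without siCtrl day 1 replicate 3.

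Members near 0 changed sign. Without 1 library the day 1 log2 fold changes spanned -0.067 to 0.13 for Pik3r1, -0.0076 to 0.20 for Akt1, -0.0065 to 0.14 for Akt2 and -0.13 to 0.089 for Pde3b. The interaction spanned -0.068 to 0.11 for Pik3r1, -0.11 to 0.14 for Akt1 and -0.66 to 0.21 for Slc2a4, and the siCtrl course of Irs2 -0.061 to 0.25. Voom gave Pik3r1 -0.041 at day 1 and Akt1 -0.033 in the interaction. Limma on log2(FPKM + 1), filtered or not, and on log2(FPKM + 0.1) gave Pde3b 0.044 and 0.048 at day 1, and in the interaction Pik3r1 -0.050 and -0.052 and Akt1 -0.025 with both. Offsets for GC and length gave Akt1 -0.017 and Akt2 -0.0020 at day 1, Pik3r1 -0.035 at day 3 and -0.084 in the interaction, and in the siCtrl course Irs2 -0.17 and Pde3b 0.029. The cause was not tested.

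Correlations of the deviations of same-numbered libraries ran from -0.169 to 0.216, and those of libraries with different numbers from -0.257 to 0.214. With 3 libraries per group this cannot settle whether the numbers pair the samples. With the replicate block the members called were 0 at day 1, 3 at day 3 and 0 in the interaction, and Insr at day 1 was -0.33 (adjusted p = 0.0366). With the block and the offsets together Akt1 and Akt2 at day 1 were -0.017 and -0.0019, Pik3r1 was -0.034 at day 3 and -0.082 in the interaction, and in the siCtrl course Irs2 was -0.17 and Pde3b 0.029. Depth limits Slc2a4 at day 1, where 5 counts were found over 6 libraries, and 3 libraries per group limit every test.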
